A study of Mus musculus with 6 samples.

Results

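The genes described here encode the enzymes that conjugate foreign and endogenous compounds and that oxidize alcohols and aldehydes. They were chosen by symbol from the annotated expression table of nodular metaplasia at the squamo-columnar junction (SCJ), as the cytosolic and membrane glutathione transferases (Gst and Mgst), the UDP-glucuronosyltransferases (Ugt), the sulfotransferases (Sult), the aldehyde dehydrogenases (Aldh) and the alcohol dehydrogenases (Adh). The rule found 83 of 24647 named genes, which had 89 of 34365 probe sets, and where a gene had several, the brightest over the 6 arrays was used. They were 7 Adh, 20 Aldh, 21 Gst, 3 Mgst, 14 Ugt and 18 Sult genes.

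The study compared nodules from *K14-Cdx2::L2-IL-1β* animals (labelled Cdx2/IL-1B, samples 52540, 52541 and 52542) with nodules from *L2-IL-1β* animals (labelled IL-1B, samples 52543, 52544 and 52545), 3 arrays for each genotype, a comparison made to look into cell apoptosis in the metaplasia of mice with both transgenes. Mice of both genotypes overexpressed IL-1β in esophageal and forestomach squamous epithelium and were given 0.2% deoxycholic acid (DCA), a secondary bile acid, in the drinking water from 8 weeks of age for 12 months. The genotypes therefore differed in Cdx2, an intestinal transcription factor driven by the keratin 14 promoter of basal squamous cells, and the strain of all samples was labelled C57/BL6. The paper calls the 3 samples of each genotype biological replicates, but the sources do not say whether a sample held nodules of 1 mouse or several. The p-values therefore measure the spread between these samples.

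Conjugation makes lipophilic compounds soluble enough to be excreted. Glutathione transferases join them to glutathione, UDP-glucuronosyltransferases to glucuronic acid and sulfotransferases to sulfate, and bile acids are themselves substrates of glucuronidation and sulfation. Alcohol dehydrogenases oxidize alcohols, including ethanol and retinol, to aldehydes or ketones, and aldehyde dehydrogenases oxidize aldehydes to acids, among them retinaldehyde to retinoic acid and the reactive aldehydes left by lipid peroxidation. Stomach epithelium is known for high levels of several of these enzymes, and the sulfotransferase Sult2b1 is an enzyme of differentiating squamous epithelium, where it makes cholesterol sulfate.

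The nodules held RNA of several tissues, and the samples of a genotype were not alike in this respect. Cdx2 itself lay between 6.74 and 6.87 on the log2 intensity scale in *L2-IL-1β* samples and between 9.04 and 9.83 in *K14-Cdx2::L2-IL-1β* samples (log2 difference 2.73, adjusted p = 0.0104 by limma). All 8 squamous and all 8 gastric surface and neck markers were at or above the median probe-set intensity of 6.64, whereas 3 of 10 intestinal markers (Sis, Cdh17 and Cdx1) were below it although the samples are labelled as intestinal metaplasia, and only Cdx2 and Cdhr5 of that list were called higher. The mean level of the 8 squamous markers was 12.15 to 12.25 in *K14-Cdx2::L2-IL-1β* and 12.61 to 12.64 in *L2-IL-1β* samples, and 3 of 8 were called lower. The mean level of 7 parietal and chief cell markers ranged from 12.11 to 12.88 and from 10.63 to 12.23, respectively, the lowest in sample 52545. Leukocyte markers had a mean level of 8.20 to 8.80 and 9.16 to 9.30, with 1 of 7 called lower. The called marker was S100a8, which the paper describes as also expressed by squamous epithelium. Smooth muscle markers had a mean level of 12.61 to 12.83 and 11.75 to 12.68, with 0 of 6 called. That of 9 pancreatic acinar markers was 10.70 in sample 52542 and 6.41 to 6.91 in the other 5 samples. Sample 52541 alone had Y-linked transcripts (Eif2s3y 10.46, and 4.93 to 5.04 in the other samples). In these bulk samples, fewer cells of a type and less RNA per cell cannot be told apart.

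By limma, Sult2b1 alone of the 83 genes passed the test at an adjusted p under 0.10. It fell with Cdx2, while 0 genes rose and 82 were not called. Without sample 52540, 9 genes rose (among them Adh1, Gstt2, Gstt1 and Gstm3), and without any other sample 0 or 1 did. The share of all named genes called in those fits is not given, so these counts alone do not set the 83 genes apart. Calls among the related genes described below also grew without sample 52540, from 3 higher and 2 lower to 7 and 9. With all 6 arrays, 0.706% of all named genes were called higher and 1.44% lower, 2.14% in all. At an unadjusted p under 0.05, 19 of the 83 genes were higher and 3 lower, and the background was 7.06% and 8.07%. SAM, the test named in the methods, was rebuilt here with all 20 relabellings of the arrays, and at a false discovery rate under 10% it called 7 of the genes higher (Adh1, Adh6a, Aldh1b1, Aldh2, Aldh3a1, Aldh9a1 and Gstt2) and 2 lower (Sult2b1 and Ugt8a), where it called 2.19% of all named genes higher and 3.27% lower, 5.47% in all. The genotypes did not overlap for 17 genes with the higher values in *K14-Cdx2::L2-IL-1β* and 5 with the lower, which is 20.5% and 6.02% of the genes beside 9.21% and 12% of all named genes. With 3 samples for each genotype, such a separation is the most a permutation of the labels can show (exact two-sided p = 0.1).

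The log2 difference between genotypes, *K14-Cdx2::L2-IL-1β* minus *L2-IL-1β*, had a median of 0.09 over the 83 genes and of -0.0047 over all named genes. It was above 0 for 55 of the 83 genes (66.3%) and for 48.5% of all named genes. Of the 83, 55 had a mean intensity at or above the median of all probe sets, and their median difference was 0.27, beside -0.0040 over the 14766 named genes that were as bright. The 28 dimmer genes had a median difference of 0.03 and ranged from -0.15 to 0.53. The differences thus lay with the brighter genes, of which Aldh1a1, Aldh3a1, Aldh6a1 and Sult1d1 differed upward and Ugt8a downward by at least 2-fold.

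**Figure D1:**
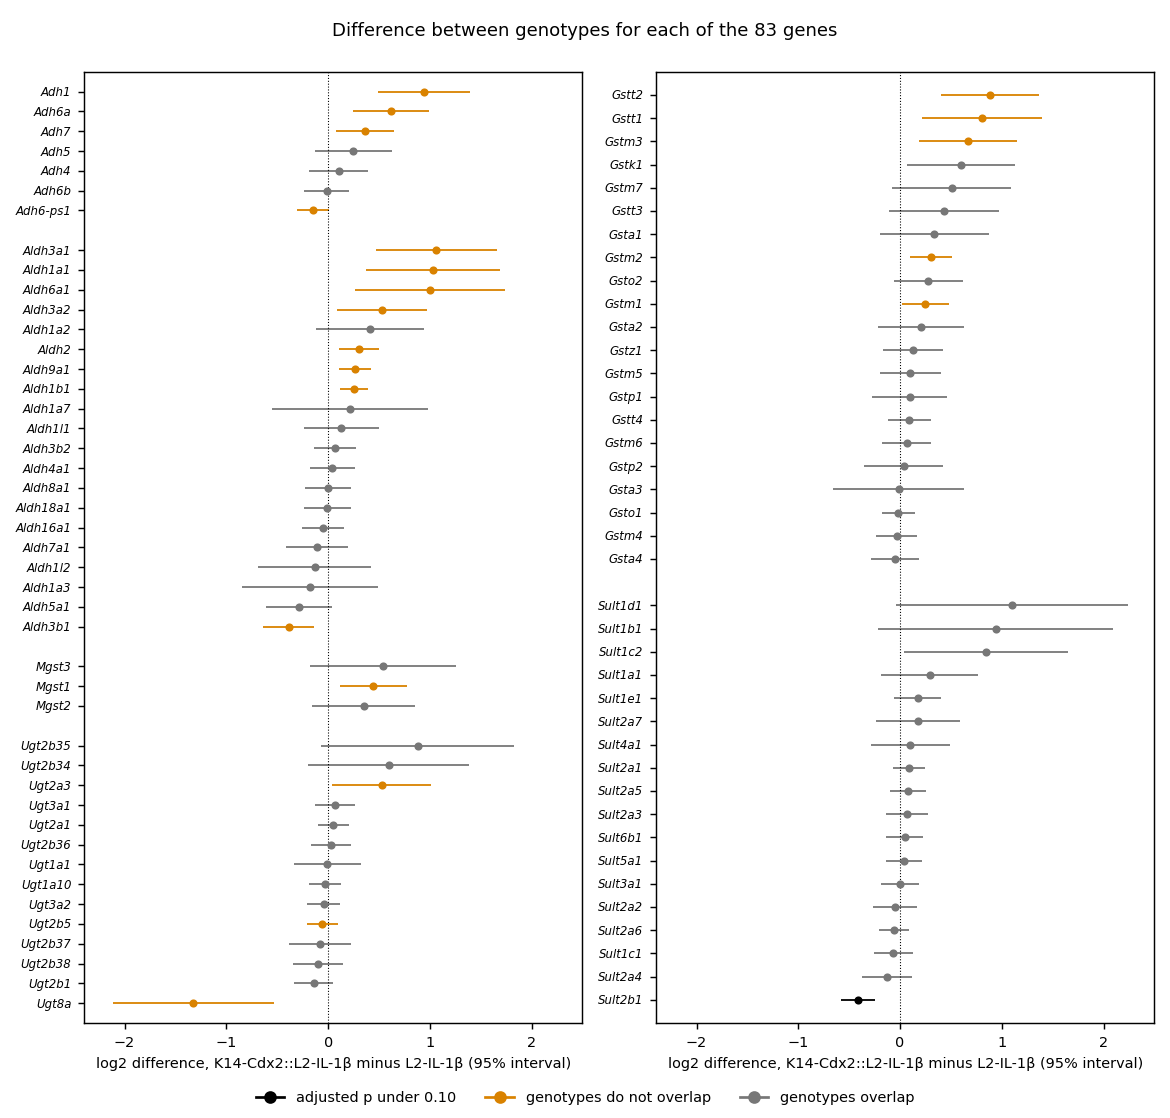
Log2 difference, *K14-Cdx2::L2-IL-1β* minus *L2-IL-1β* (horizontal axis, points) with its 95% interval from limma (bars) for each of the 83 genes, grouped by family. Sult2b1 is the gene drawn in black (adjusted p under 0.10), orange marks the genes whose genotypes did not overlap and grey the 61 that did, and most orange points of the Adh, Aldh and Gst families lie to the right of 0.

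Sult2b1, which sulfonates cholesterol and other 3β-hydroxysteroids, was the gene with the smallest p (chr7:52985353-53014982 in NCBIM37). Its log2 intensity was 11.27, 11.30 and 11.16 in samples 52540, 52541 and 52542 and 11.58, 11.69 and 11.69 in samples 52543, 52544 and 52545. Every *K14-Cdx2::L2-IL-1β* sample was below every *L2-IL-1β* sample, with a gap larger than the range within either genotype. The level fell by 0.41 on the log2 scale (SE 0.071, 95% interval -0.58 to -0.24, limma adjusted p = 0.0704). The call was lost when any sample other than 52540 was left out (adjusted p up to 0.240, log2 difference -0.45 to -0.37). The squamous markers moved the same way, 6 of 8 with non-overlapping genotypes and with a median log2 difference of -0.37, and Krt14, the gene whose promoter drives the transgene, had a log2 difference of -0.57. Leukocyte markers were also lower, 5 of 7 with non-overlapping genotypes and with a median of -0.53, whereas smooth muscle markers had a median of 0.52 with 3 of 6 separate and higher. Of all named genes, 12% were separate and lower and 9.21% separate and higher. The part of these tissues in the Sult2b1 result was not tested.

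Ugt8a, which transfers galactose to ceramide rather than glucuronic acid to foreign compounds, had the widest difference of the 83 genes. Its log2 intensity was 10.24, 10.44 and 9.48 in samples 52540, 52541 and 52542 and 11.96, 11.20 and 10.97 in samples 52543, 52544 and 52545. The genotypes did not overlap, but each spread over more than the gap between them. The log2 difference was -1.32 (SE 0.33, 95% interval -2.12 to -0.53), with an adjusted p of 0.163 by limma and a false discovery rate of 8.10% by SAM. Aldh3b1, which oxidizes lipid aldehydes, was the remaining gene above the median intensity with lower, separate values (7.52, 7.75 and 7.37 beside 7.89, 7.92 and 7.995, log2 difference -0.39, limma adjusted p = 0.186).

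The windows around the start sites of Sult2b1 and of the Adh genes are shown because Cdx2 is the factor that differs between the genotypes. They are RefSeq sequences of mouse build GRCm38.p6, from 250 bases before to 50 after the annotated start, written 5′ to 3′ on the strand of the gene, and capitals mark TTTAT or its reverse complement ATAAA, the core of the sites that caudal-type homeobox proteins bind. For Sult2b1 the windows are chr7:45742429-45742728 and chr7:45759563-45759862, minus strand, and for Adh1, Adh6a and Adh7 they are chr3:138277335-138277634, chr3:138313036-138313335 and chr3:138217523-138217822, plus strand.
Sult2b1 downstream start: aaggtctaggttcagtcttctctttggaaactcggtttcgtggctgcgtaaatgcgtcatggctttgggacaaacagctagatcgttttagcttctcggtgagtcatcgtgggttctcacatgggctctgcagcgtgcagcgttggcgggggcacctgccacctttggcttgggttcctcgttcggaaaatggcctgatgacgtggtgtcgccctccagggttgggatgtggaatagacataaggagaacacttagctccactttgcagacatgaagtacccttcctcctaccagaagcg
Sult2b1 upstream start: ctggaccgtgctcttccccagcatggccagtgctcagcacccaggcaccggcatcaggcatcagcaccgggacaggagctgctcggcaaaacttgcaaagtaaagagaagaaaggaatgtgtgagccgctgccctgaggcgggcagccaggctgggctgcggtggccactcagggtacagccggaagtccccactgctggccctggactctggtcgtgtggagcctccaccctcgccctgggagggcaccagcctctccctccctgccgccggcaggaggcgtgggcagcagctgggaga
Adh1: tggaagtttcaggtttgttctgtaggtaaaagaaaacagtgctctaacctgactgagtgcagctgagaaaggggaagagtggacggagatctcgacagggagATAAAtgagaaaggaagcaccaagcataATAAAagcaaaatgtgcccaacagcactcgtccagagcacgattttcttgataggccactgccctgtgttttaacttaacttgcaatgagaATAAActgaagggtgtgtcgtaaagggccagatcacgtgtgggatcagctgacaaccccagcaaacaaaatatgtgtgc
Adh6a: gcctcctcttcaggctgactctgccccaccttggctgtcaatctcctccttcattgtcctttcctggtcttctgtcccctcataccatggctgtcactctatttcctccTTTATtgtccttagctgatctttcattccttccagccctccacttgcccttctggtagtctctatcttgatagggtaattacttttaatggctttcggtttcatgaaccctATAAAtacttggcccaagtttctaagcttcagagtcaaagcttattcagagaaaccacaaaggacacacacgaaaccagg
Adh7: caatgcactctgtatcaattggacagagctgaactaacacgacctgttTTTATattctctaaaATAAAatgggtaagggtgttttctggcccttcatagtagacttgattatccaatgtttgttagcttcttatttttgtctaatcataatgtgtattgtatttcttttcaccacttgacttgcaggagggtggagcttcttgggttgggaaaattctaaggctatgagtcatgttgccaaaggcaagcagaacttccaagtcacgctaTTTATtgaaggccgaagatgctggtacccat
Neither Sult2b1 window held the core, while Adh1 and Adh7 held it 3 times each and Adh6a 2 times. Of these matches, 0 in Adh1, 1 in Adh7 and 1 in Adh6a lay inside a TATAAA. The windows of Aldh1b1, Aldh9a1, Gstm3 and Gstt1, which were separate and higher, and that of Ugt8a, separate and lower, held it 0 times. Gstm2, Mgst1 (upstream start) and Ugt2a3, also separate and higher, held it 1, 1 and 2 times. Among overlapping genes, Sult1d1, Mgst2, Ugt2b35 and Sult1b1 (upstream start) held it 3, 2, 1 and 1 times. Gsto1, Mgst3, Sult1c2 and Ugt2b34, which overlapped too, held it 0 times. Promoters were found for 68 of the 83 genes (82 start sites), and 39 of the 82 windows (47.6%) held TTTAT on either strand, beside 40.0% of 32851 windows of all genes. TATAAA, which contains ATAAA, was in 18.3% and 13.6%. The core of the antioxidant response element (TGACNNNGC, either strand), a motif known from promoters of glutathione transferases, was in 7 of the 82 windows (8.54%) and in 12.4% of all windows.

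The alcohol dehydrogenase genes with an annotated position lie side by side on chromosome 3, and Adh1, Adh6a and Adh7 had separate, higher values in *K14-Cdx2::L2-IL-1β* nodules. Adh1, the class I enzyme for ethanol and retinol (chr3:137940458-137953662 in NCBIM37), was at 11.19, 11.25 and 11.77 in samples 52540, 52541 and 52542 and at 10.33, 10.74 and 10.30 in samples 52543, 52544 and 52545. Its genotypes were separate, with a gap about as wide as the range within *L2-IL-1β*. The log2 difference was 0.94 (SE 0.19, 95% interval 0.49 to 1.40), and its adjusted p of 0.103 by limma was the nearest to the threshold among the genes not called. A second, dim Adh1 probe set, at 4.68 to 4.77 in all samples, had a log2 difference of -0.05 (95% interval -0.18 to 0.09).

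Adh6a, of the class V group, was at 7.42, 7.67 and 7.12 beside 6.74, 6.96 and 6.64 (log2 difference 0.62, SE 0.16, limma adjusted p = 0.164). Adh7, the class IV enzyme of upper digestive epithelium and an efficient retinol dehydrogenase, was at 12.60, 12.40 and 12.53 beside 12.00, 12.39 and 12.05. For Adh7 the samples 52541 and 52544 were nearly equal, and the log2 difference was 0.36 (SE 0.12, limma adjusted p = 0.264). Adh5, the glutathione-dependent formaldehyde dehydrogenase, overlapped between genotypes with a log2 difference of 0.25. The other 3 genes were below the median intensity, and of these Adh6-ps1, annotated as a pseudogene, had separate but close values (log2 difference -0.15, limma adjusted p = 0.404). The family's median difference was 0.25.

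Among the 20 aldehyde dehydrogenases, 7 (35%) had separate, higher values in the Cdx2/IL-1B samples and 1 (5%), Aldh3b1, separate and lower values. Of the 20, 19 were at or above the median intensity. Of all named genes that bright, 11.5% were separate and higher and 14.7% separate and lower. The 7 are known for different substrates, and their differences ran from 0.25 to 1.06 on the log2 scale. Aldh3a1, a detoxifying enzyme of cornea and stomach, was at 11.10, 10.88 and 11.61 in samples 52540, 52541 and 52542 and at 10.23, 10.47 and 9.71 in samples 52543, 52544 and 52545 (log2 difference 1.06, SE 0.25, limma adjusted p = 0.140). Aldh1a1, which makes retinoic acid from retinaldehyde, was at 12.11, 12.09 and 12.46 beside 11.34, 11.66 and 10.57 (log2 difference 1.03, SE 0.27, limma adjusted p = 0.182). Aldh6a1, a mitochondrial enzyme of valine and pyrimidine breakdown, was at 10.80, 10.91 and 11.60 beside 10.17, 10.57 and 9.55 (log2 difference 1.002, SE 0.31, limma adjusted p = 0.232).

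In all of Aldh3a1, Aldh1a1 and Aldh6a1, sample 52542 was the highest of the 6 and sample 52545 the lowest. Without sample 52545, the log2 difference of Aldh1a1 was 0.72 and that of Aldh6a1 0.73. A second probe set of Aldh6a1 was also separate, with a log2 difference of 0.53.

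Aldh1b1, Aldh2 and Aldh9a1 differed by less but varied little within a genotype. Aldh1b1, a mitochondrial enzyme that takes acetaldehyde, was at 7.11, 7.16 and 7.16 beside 6.86, 6.92 and 6.90 (log2 difference 0.25, SE 0.059, limma adjusted p = 0.139). Aldh9a1, which oxidizes aminobutyraldehydes including a precursor of carnitine, was at 11.78, 11.82 and 11.77 beside 11.55, 11.58 and 11.44 (log2 difference 0.27, SE 0.066, limma adjusted p = 0.157). Aldh2, the main mitochondrial acetaldehyde dehydrogenase, was at 12.00, 11.88 and 11.83 beside 11.54, 11.71 and 11.53 (log2 difference 0.31, SE 0.082, limma adjusted p = 0.182), and its second probe set gave 0.26. For these genes the *K14-Cdx2::L2-IL-1β* samples had SDs of 0.033, 0.029 and 0.084, so that the 3 samples lay close together.

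Aldh3a2, the fatty aldehyde dehydrogenase, was also separate (9.97, 10.23 and 10.68 beside 9.79, 9.90 and 9.60, log2 difference 0.53, limma adjusted p = 0.283, and 0.34 without sample 52542), as was its second probe set (log2 difference 0.35). The other 12 genes of the family overlapped between genotypes. They included Aldh1a2 and Aldh1a3, which like Aldh1a1 make retinoic acid (log2 differences 0.41 and -0.18), and Aldh3b2, at 11.74 to 11.75 in *L2-IL-1β* and 11.65 to 11.93 in *K14-Cdx2::L2-IL-1β* samples. The median over the 20 genes was 0.10.

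**Figure D2:**
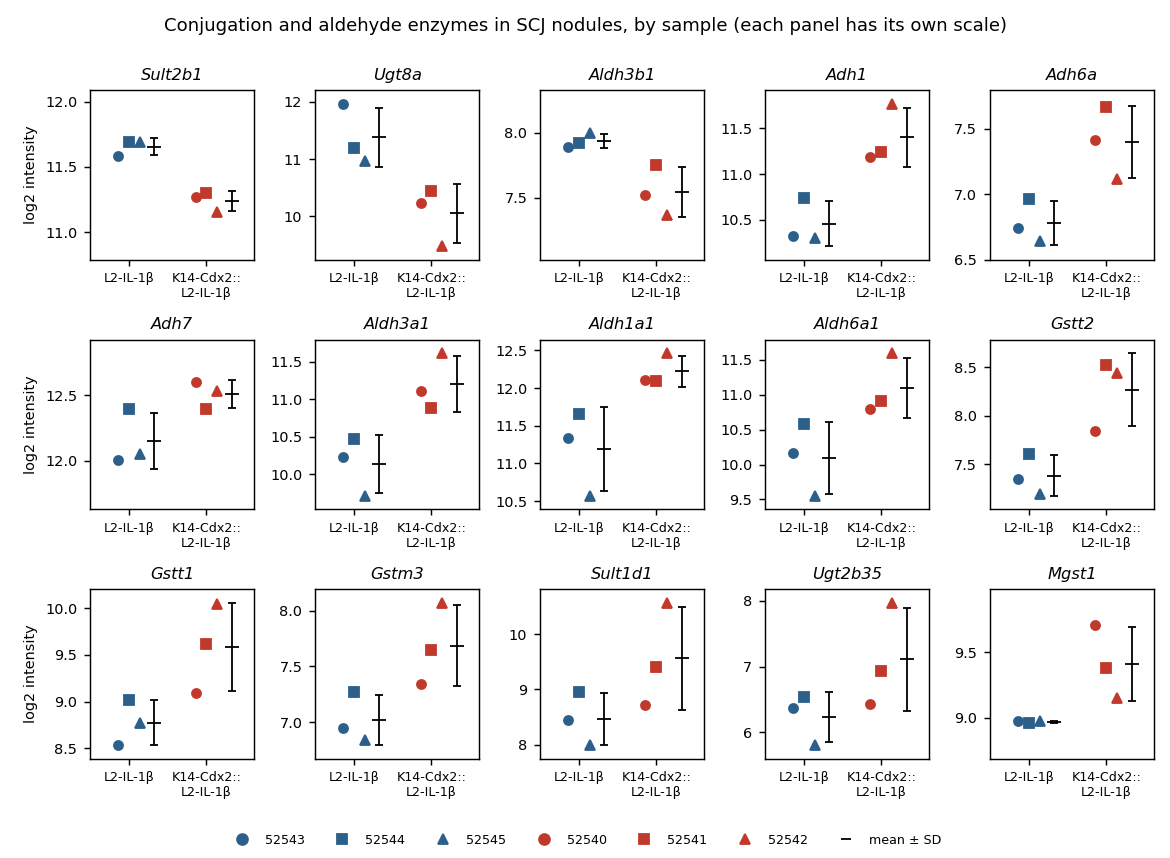
Log2 intensity (vertical axis, a scale of its own in each panel) of 15 genes in each sample, with the mean and SD of each genotype (n = 3). Sult2b1, Ugt8a and Aldh3b1 are lower and 10 of the others higher in every *K14-Cdx2::L2-IL-1β* sample, whereas Sult1d1 and Ugt2b35 overlap and are highest in sample 52542.

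Of the 21 cytosolic, mitochondrial and peroxisomal glutathione transferases, 5 (23.8%) had separate, higher values in *K14-Cdx2::L2-IL-1β* nodules, 0 had separate, lower values, and the median difference was 0.20. The shares were 11.5% and 14.7% of all named genes at or above the median intensity, as 19 of the 21 were. The 5 were of the theta (Gstt) and mu (Gstm) classes. Gstt2 was at 7.84, 8.53 and 8.45 in samples 52540, 52541 and 52542 and at 7.35, 7.61 and 7.19 in samples 52543, 52544 and 52545 (log2 difference 0.89, SE 0.20, limma adjusted p = 0.131). Gstt1 was at 9.09, 9.61 and 10.04 beside 8.53, 9.02 and 8.77 (log2 difference 0.81, SE 0.25, limma adjusted p = 0.228). For both genes sample 52540 was the lowest of its genotype, and for Gstt1 it was barely above sample 52544. Gstt3 overlapped (log2 difference 0.43) and Gstt4 was below the median intensity.

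In the mu class, which lies in a row on chromosome 3, Gstm3 was at 7.34, 7.65 and 8.07 beside 6.94, 7.27 and 6.84 (log2 difference 0.67, SE 0.20, limma adjusted p = 0.225). Gstm2 was at 11.11, 11.21 and 11.35 beside 10.84, 10.99 and 10.93 (log2 difference 0.30, SE 0.085, limma adjusted p = 0.196), and Gstm1 was separate by a narrow margin (log2 difference 0.25, limma adjusted p = 0.337). Gstm4, Gstm5, Gstm6 and Gstm7 overlapped, with differences of -0.03, 0.10, 0.06 and 0.51 (the last 0.26 without sample 52542 and 0.76 without sample 52540). The genes of this class resemble each other in sequence, and probes shared between them were not checked.

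Other classes differed less. Gstk1, the kappa enzyme of mitochondria and peroxisomes, had a log2 difference of 0.60 (limma adjusted p = 0.311) and overlapped through sample 52540, at 11.52, below sample 52544, at 11.54. Its difference was 0.38 without sample 52542. Gsta4, which conjugates 4-hydroxynonenal from peroxidized lipids, was between 12.89 and 13.25 in all samples (log2 difference -0.05, 95% interval -0.29 to 0.19). Gsto1, of the omega class, was between 13.21 and 13.33 (log2 difference -0.02, 95% interval -0.17 to 0.14), and Gstp1, of the pi class, differed by 0.09 (95% interval -0.27 to 0.46). The probe sets of Gsta1 and Gsta2 are each annotated to a further gene, and that of Gstp2 is annotated to a transcript placed on chromosome 1 with 5 of 11 probes matching, so the values under these names are uncertain.

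The 3 membrane glutathione transferases had differences of 0.35 to 0.54. Mgst1, of the endoplasmic reticulum and outer mitochondrial membrane, was at 9.71, 9.38 and 9.15 in samples 52540, 52541 and 52542 and at 8.97, 8.96 and 8.97 in samples 52543, 52544 and 52545. The *L2-IL-1β* samples were nearly equal and the *K14-Cdx2::L2-IL-1β* samples all above them (log2 difference 0.44, SE 0.14, limma adjusted p = 0.237). Sample 52540 was the highest for Mgst1, unlike for Mgst2 and Mgst3, where sample 52542 was the highest and sample 52545 the lowest. These relatives overlapped between genotypes (log2 differences 0.35 and 0.54, limma adjusted p = 0.537 and 0.501), and without sample 52542 their differences were 0.15 and 0.25. Without sample 52540 that of Mgst1 was 0.30.

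Of the 14 UDP-glucuronosyltransferase genes, 9 were below the median intensity, and the family's median difference was -0.02. Apart from Ugt8a, the differences lay in the Ugt2 genes, which share a stretch of chromosome 5 with Sult1b1, Sult1d1 and Sult1e1 (12 genes within chr5:87318792-88020636, NCBIM37). Ugt2b35 was at 6.43, 6.94 and 7.97 in samples 52540, 52541 and 52542 and at 6.37, 6.54 and 5.80 in samples 52543, 52544 and 52545 (log2 difference 0.88, SE 0.40, limma adjusted p = 0.403). Ugt2b34 was at 10.93, 11.19 and 11.99 beside 10.81, 11.23 and 10.29 (log2 difference 0.59, SE 0.33, limma adjusted p = 0.501). Both overlapped, with sample 52542 the highest and sample 52545 the lowest.

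Ugt2a3 was the only Ugt gene with separate, higher values, at 4.83, 5.01 and 5.64 beside 4.69, 4.68 and 4.53, all below the median intensity (log2 difference 0.53, SE 0.20, limma adjusted p = 0.331). Without sample 52542 its difference was 0.28. Ugt2b5 was separate and lower by 0.06, at 3.88 to 4.01 beside 4.01 to 4.03. The probe sets of Ugt1a1 and Ugt1a10, whose transcripts share their last exons, are each annotated to further Ugt1a genes and are not specific to the gene named. They had differences of -0.01 (95% interval -0.34 to 0.32) and -0.04 (95% interval -0.19 to 0.12).

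The sulfotransferases other than Sult2b1 all overlapped between genotypes. The 7 Sult2a genes, whose enzymes sulfonate hydroxysteroids and bile acids, were all below the median intensity, and their differences ran from -0.13 to 0.17. The 6 Sult1 genes, of the phenol sulfotransferase group, had a median difference of 0.57, and the widest belonged to Sult1d1, known for catecholamines, Sult1b1, known for thyroid hormone, and Sult1c2. Sult1d1 was at 8.72, 9.40 and 10.57 in samples 52540, 52541 and 52542 and at 8.44, 8.94 and 7.997 in samples 52543, 52544 and 52545 (log2 difference 1.10, SE 0.48, limma adjusted p = 0.381). Sult1b1 was at 8.86, 9.44 and 10.51 beside 8.46, 9.40 and 8.13 (log2 difference 0.94, SE 0.48, limma adjusted p = 0.459). Sult1c2 was at 10.90, 11.37 and 11.83 beside 10.55, 11.08 and 9.93 (log2 difference 0.84, SE 0.34, limma adjusted p = 0.346).

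For these genes the spread within a genotype was as large as the difference between genotypes, and again sample 52542 was the highest and sample 52545 the lowest. Without sample 52542 the log2 differences were 0.60 for Sult1d1, 0.49 for Sult1b1, 0.45 for Ugt2b35 and 0.28 for Ugt2b34, and without sample 52545 that of Sult1c2 was 0.55.

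This order of the samples was common among the brighter genes. Of the 55 genes at or above the median intensity, sample 52542 was the highest in 27 (49.1%) and sample 52545 the lowest in 29 (52.7%), whereas these samples held those places in 28.1% and 14.6% of the 14766 named genes that were as bright. The median over the 55 genes, relative to the *L2-IL-1β* mean of each gene, was 0.11, 0.28 and 0.33 in samples 52540, 52541 and 52542 and 0.00, 0.11 and -0.11 in samples 52543, 52544 and 52545. The median over the parietal and chief cell markers had the same order within each genotype, with 0.80, 1.22 and 1.60 in the former and 0.40, 0.78 and -0.92 in the latter. The gastric surface and neck markers stood at -0.09, 0.28 and 0.64 and at -0.05, 0.27 and -0.22, and 0 of either list were called. Separate, higher values in *K14-Cdx2::L2-IL-1β* were seen for 3 of 7 parietal and chief cell markers, beside 9.21% of all named genes.

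The acinar markers stood at 4.67 in sample 52542 and between -0.07 and 0.26 elsewhere. Hepatocyte markers, included because many of the 83 genes are known from liver, were below the median intensity for 7 of 10 genes, and 0 were called. Their median difference was 0.16, and 3 had separate, higher values. These were Fga, Serpina1a and Cps1, all below the median intensity, with log2 differences of 0.15, 0.13 and 0.19. Of all named genes below the median intensity, 5.78% were separate and higher. The 3 brighter hepatocyte markers were Ttr, Apoa1 and Alb, with log2 differences of 1.03, 0.84 and 0.88 and overlapping genotypes. All 3 were highest in sample 52542 and lowest in sample 52545. Albumin lay between 6.67 and 9.11, whereas Fga, Fgb and Tat lay between 4.51 and 5.65 in all samples. The part of stomach, pancreas, liver-type and squamous content in the values of the 83 genes was not tested.

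**Figure D3:**
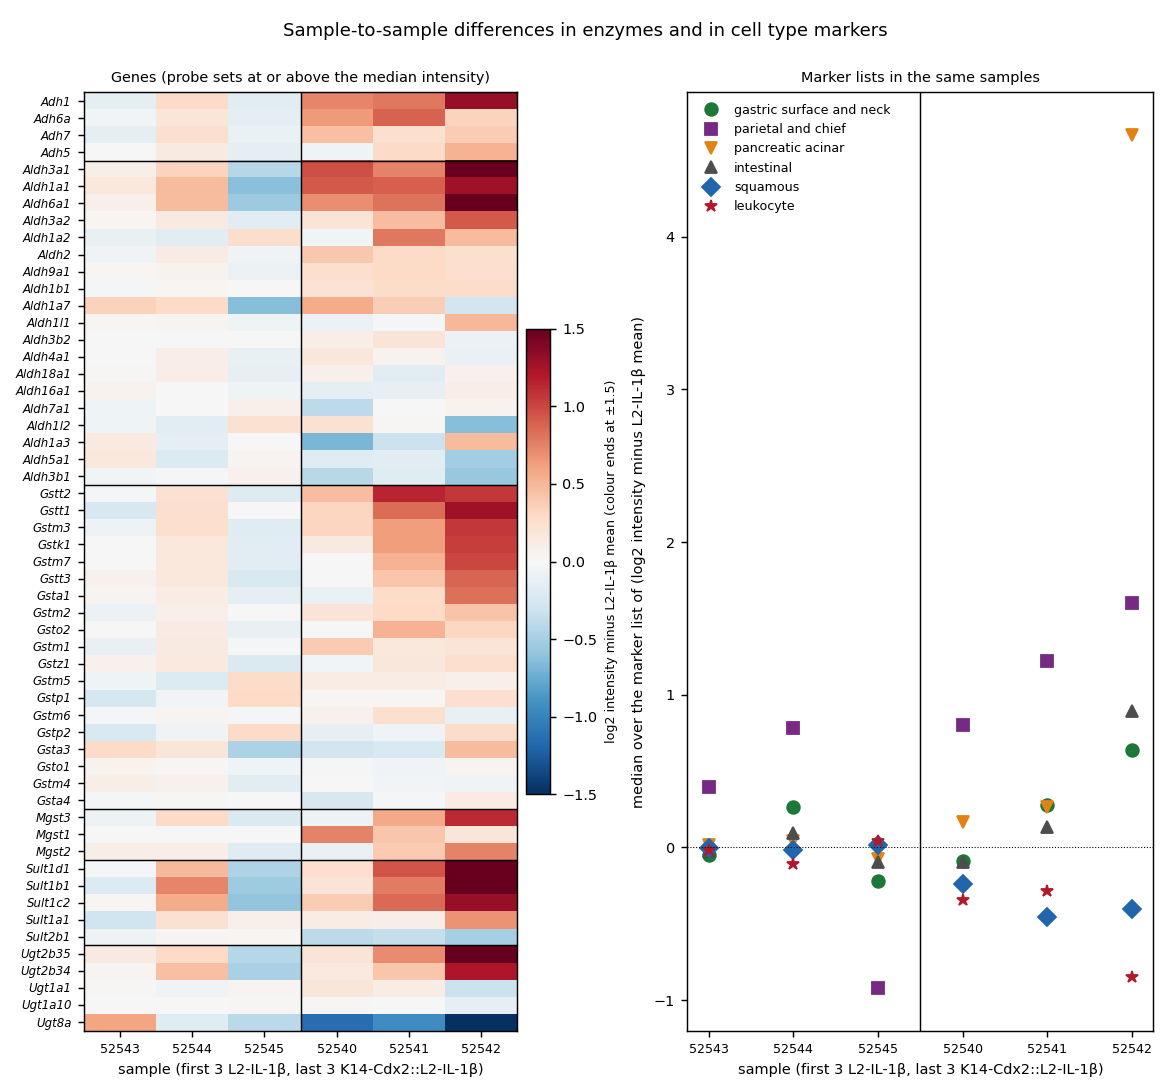
Left, the 55 genes at or above the median intensity (rows, grouped by family) in the 6 samples (columns), coloured by log2 intensity minus the *L2-IL-1β* mean of the gene. Right, the median of the same quantity over 6 marker lists in each sample, where the parietal and chief cell markers run from -0.92 in sample 52545 to 1.60 in sample 52542, the samples most often lowest and most often highest on the left.

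Genes that supply, accompany or follow these enzymes were taken from 7 lists, for glutathione, the donors of glucuronate and sulfate, other conjugation, retinoids, carbonyl reduction and oxidation, conjugate efflux and the sensing transcription factors. Of 121 such genes, 3 rose and 2 fell by limma, 116 did not pass, and 16 had separate, higher and 15 separate, lower values (13.2% and 12.4%). Of all named genes, 0.706% were called higher and 1.44% lower, and 9.21% and 12% were separate. Of the 121 genes, 97 were at or above the median intensity, and of all named genes that bright 11.5% and 14.7% were separate. Both shares of separate genes were thus near those of named genes as bright. The median difference of the 121 genes was 0.05.

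Of the 21 glutathione genes, 1 rose and 1 fell. Dpep1, a dipeptidase that completes the breakdown of glutathione conjugates, was at 9.66, 9.69 and 9.82 in samples 52540, 52541 and 52542 and at 8.56, 9.02 and 8.997 in samples 52543, 52544 and 52545 (log2 difference 0.87, SE 0.14, limma adjusted p = 0.0591). Gpx2, the glutathione peroxidase of gastrointestinal epithelium, was at 6.28, 5.91 and 6.23 beside 6.93, 6.79 and 6.64 (log2 difference -0.64, SE 0.12, limma adjusted p = 0.0910). Both genes were clearly separate between genotypes, in opposite directions, but Gpx2 was below the median intensity. The list's median was 0.11, with 3 genes separate and higher and 7 separate and lower.

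Among 26 retinoid genes, Stra6, the receptor that takes up retinol from its binding protein, fell. It was at 8.72, 8.68 and 8.91 beside 9.52, 9.53 and 9.51 (log2 difference -0.75, SE 0.080, limma adjusted p = 0.0265), so that its *L2-IL-1β* samples were nearly equal. No gene of this list was called higher, and its median difference was 0.02. Of 17 genes of carbonyl reduction and oxidation, Hsd17b14, a hydroxysteroid dehydrogenase, rose, from 7.24, 7.38 and 7.35 in *L2-IL-1β* to 8.85, 8.58 and 7.96 in *K14-Cdx2::L2-IL-1β* samples (log2 difference 1.14, SE 0.22, limma adjusted p = 0.0890). Of 12 efflux genes, Abcc5, a transporter of organic anions and glutathione conjugates, rose, from 7.72, 7.91 and 7.70 to 8.52, 8.43 and 8.83 (log2 difference 0.82, SE 0.12, limma adjusted p = 0.0548).

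In the lists for the donors of glucuronate and sulfate (14 genes), other conjugation (13 genes) and sensing factors (18 genes), 0 genes were called by limma, and the medians were 0.23, 0.06 and 0.16. All calls among the related genes were lost when any of samples 52541, 52543, 52544 and 52545 was left out.

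**Figure D4:**
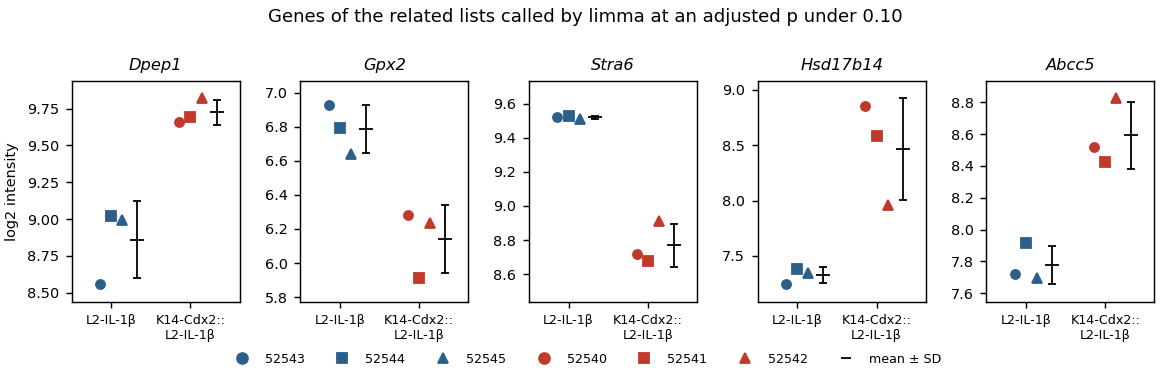
Log2 intensity (vertical axis, a scale of its own in each panel) of the 5 related genes called by limma at an adjusted p under 0.10, in each sample, with the mean and SD of each genotype (n = 3). Dpep1, Hsd17b14 and Abcc5 are higher and Gpx2 and Stra6 lower in every *K14-Cdx2::L2-IL-1β* sample.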

How the data were processed

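Total RNA of SCJ nodules was run on 6 Affymetrix mouse gene ST arrays (the methods and the design text name different versions). The authors deposited log2 intensities per probe set, already normalized between arrays; no source used here gives the summarisation. The array medians lay between 6.62 and 6.65. The 2 deposited tables with values per array were identical. Columns of the authors' own comparisons (fold changes, ratios, scores, p-values and q-values) were not used. The submitters' processing notes name mm8, while the annotated gene positions are those of NCBIM37.

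All 34365 probe sets were fitted in R 4.3.3 with limma 3.58.1 (lmFit, eBayes) on genotype, p-values were adjusted by the method of Benjamini and Hochberg, and genes of any fold were called when the adjusted p was under 0.10. SAM, named in the methods, was an alternative, with 20 relabellings and an added constant of 0.0336. The other alternatives were quantile normalization or median centring of the deposited values, array weights, eBayes with trend and robust, averaging the probe sets of each gene, using the probe sets at or above the median intensity of 6.64 or those that name 1 gene, other thresholds and leaving out each array in turn. The functions were tested on simulated data.

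The members and gene lists were chosen with earlier results of these data known. Named were the called genes, the 4 genes of each family with the smallest p and the gene with the highest mean, and the called related genes. Other members named, among them Aldh1a1, Aldh6a1, Aldh3b1, Aldh3a2, Gstk1, Gstm1 and Gstm7, were chosen after their values were seen. A 2-fold difference is 1 on the log2 scale. The number of arrays limits the precision. Figures were drawn with matplotlib 3.10.9.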

Additional observations from a re-analysis of the deposited data

How the results depend on the processing

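No paired analysis was possible because the genotypes share no replicate number. The count of called genes depended on the setting. Outside the main limma fit and SAM, no share of all named genes is given beside it, so those counts alone do not set the enzymes apart. Of the 83 genes, 0 were higher by limma, 1 was after a further quantile normalization, among probe sets naming 1 gene or with trend and robust (Adh1 each time), 2 were without probe sets below the median (Adh1 and Gstt2), 7 with array weights, 7 by SAM, and 5 at an unadjusted p under 0.01 with a fold of 1.5, the thresholds for SCJ genes in the methods. The lower call, Sult2b1, became 0 genes after quantile normalization, at an adjusted p under 0.05 or with a fold of 2 required, and 2 genes by SAM. At the thresholds of the methods it was also lost, and the 1 lower gene was Ugt8a. The cause was not tested.

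Leaving out 1 sample gave 0 to 9 higher and 0 to 1 lower genes. There were 9 higher genes without sample 52540 (Adh1, Aldh1b1, Aldh3a2, Gstk1, Gstm2, Gstm3, Gstm7, Gstt1 and Gstt2), 1 without sample 52542 (Adh6a) and 0 without any other. No share of all named genes is given for these fits, so the counts alone do not set these enzymes apart. Samples 52540 and 52542 had the lowest array weights (0.423 and 0.519), and the others lay between 1.21 and 1.58. Sample 52540 had a mean correlation of 0.9875 with the arrays of its own genotype and of 0.9903 with those of the other. Every other sample correlated more closely with its own genotype. Among the related genes, 3 higher and 2 lower calls became 6 and 5 with array weights, 7 and 4 by SAM, 0 and 1 at an adjusted p under 0.05, and 1 and 0 with a fold of 2. Averaging the probe sets of each gene gave 4 lower calls, and the thresholds of the methods gave 5 higher ones. Leaving out 1 sample gave 0 to 7 higher and 0 to 9 lower calls.

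The differences of most members named with a value kept their direction. Those that turned were all close to 0 or overlapping between genotypes. That of Gsto1 was 0.044 after quantile normalization, and that of Ugt1a1 was 0.0024 after median centring and 0.038 with array weights. With 1 sample left out, Gsto1 ranged from -0.049 to 0.011, Aldh1a3 from -0.50 to 0.075, Gsta4 from -0.13 to 0.047, Gstm4 from -0.11 to 0.016, Gstm6 from -0.025 to 0.15, Gstp1 from -0.040 to 0.24, Ugt1a1 from -0.11 to 0.15 and Ugt1a10 from -0.059 to 0.010. Adh1 ranged from 0.76 to 1.09 with 1 sample left out (limma adjusted p 0.0713 to 0.368). Averaging it with its dim probe set gave 0.45, and its false discovery rate by SAM was 4.33%. With 3 arrays a genotype, a missed threshold does not show that levels were equal. Members and related genes below the median intensity may be near background.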
